A study of Bos taurus and Capra hircus with 9 samples.

Results

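The miR-378 family was described in milk-derived EVs from its 4 listed entries, bta-miR-378, bta-miR-378b, bta-miR-378c and bta-miR-378d, out of 296 bta-miRNA entries in the deposited table. The entries were taken by name, as miR-378 with or without a letter. The family was chosen with earlier results of these data known, and its p-values are to be read with that limit. EVs are the membrane vesicles that cells release, and here they were purified from skimmed, cell-depleted milk. Small RNAs were sequenced from 9 animals with 1 library each, namely 4 goats (17, 44, 79 and 127) and 5 cows (1, 2, 3, 20 and 62). The authors had sampled 5 goats, and the sample of 1 of them failed RNA quality control. The goats were primiparous Alpine animals at 26 ± 9 days in milk, and the cows were Holstein Friesian animals at 30 ± 7 days in milk. No animal was treated, all milk received the same preservatives, and parity of the cows was not stated. Species cannot be told apart from breed, farm and an added acetic acid step used on goat milk. Goat reads were counted on bovine sequences, so a goat value holds only tags that were counted on a bovine entry.

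miRNAs are short RNAs that guide Argonaute proteins to mRNAs, mainly by pairing of the seed, which lies near the 5′ end of the mature sequence. In mice, miR-378 is made from an intron of Ppargc1b, the gene of PGC-1beta, a transcriptional coactivator of mitochondrial and lipid metabolism genes. Mice that lack this locus are known for a changed use of fat.

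The 4 mature sequences are shown because the entries differ by only a few bases and may compete for the same tags. They are written 5′ to 3′ as in the deposited table, with T for U and with the seed, bases 2 to 8, in capitals.
miR-378: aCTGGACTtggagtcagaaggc
miR-378c: aCTGGACTtggagtcagaagt
miR-378b: aCTTGACTtggagtcagaaggc
miR-378d: cTGGACTTggagtcagaagacc
miR-378 and miR-378c carried the same seed, and no other listed entry carried it. miR-378c was identical to miR-378 over the first 20 bases, differed by G21T (position counted from 1 at the 5′ end of miR-378, with the miR-378 base first) and was 1 base shorter. miR-378b differed from miR-378 by G4T alone, which lies in the seed, so its seed was its own. miR-378d began at base 2 of miR-378, ran with it through base 20 over 19 identical bases, and then differed by G21A and by an added base at the 3′ end. Its seed was therefore shifted by 1 base and was shared with no other listed entry. The longest run common to all 4 entries had 16 bases and was found in 4 of the 296 listed sequences, the family itself. The sources used here do not say how tags that match more than 1 of these entries were assigned, and whether the entries share tags was not tested.

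The RefSeq annotation of the bovine ARS-UCD2.0 assembly held 5 loci of these names on 5 chromosomes, and all 4 entries matched one by name. Mature miR-378 was named for 2 of the loci. MIR378-1 lay within the span of PPARGC1B, the coactivator gene, and MIR378-2 lay within the span of CALCR, which encodes the calcitonin receptor. MIR378C lay within ZNF521, a zinc finger protein gene, and MIR378D within MSI2, an RNA-binding protein gene, while MIR378B lay in no other gene's span. Only the miR-378 entry thus had a locus in the coactivator gene, and what each of its 2 loci added to its level cannot be told apart in a table of mature sequences. The table of genes gave spans without exons, so no intron was read from it. No coordinates are given, since the build behind the deposited values was not stated. The other miRNA genes within these spans, MIR489 and MIR653 in CALCR and MIR12051 in ZNF521, were not among the 296 listed entries.

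The deposited values were TPM, an abundance that the authors scaled to the size of each library, written as whole numbers. The listed entries added up to 239233 to 406336 TPM in goats and 267316 to 420029 TPM in cows. The authors gave reads as averages, higher for goats than for cows, and not per library, so no counting interval was computed. Species were compared with limma on log2(TPM + 1), with p-values adjusted by Benjamini-Hochberg over the 217 entries that exceeded 1 TPM in 4 or more libraries. Of these, 61.3% passed an adjusted p of 0.05 in either direction. All 4 entries of the family passed this filter on low values, but miR-378b and miR-378d passed it through the goats alone. The epithelial markers miR-200a, miR-200b and miR-200c were among the abundant entries, and none of the 3 passed the test. Their goat means were 11977 ± 2114, 11937 ± 3499 and 10108 ± 3735 TPM (SD, n = 4). Their cow means were 13668 ± 2109, 9353 ± 2358 and 12112 ± 2526 TPM (SD, n = 5). Of the other tested epithelial markers, miR-429 did not pass, and miR-141 was lower in goats at a mean of 399 against 940 TPM (adjusted p = 0.00131, limma). miR-205 passed as higher, but it met the filter through the goats alone.

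miR-378, the main entry of the family, was higher in goats. It stood at 4141 TPM in goat 17, 2173 in goat 44, 3522 in goat 79 and 3435 in goat 127. In cows it stood at 593 TPM in cow 1, 323 in cow 2, 223 in cow 3, 288 in cow 20 and 161 in cow 62. Goat 44 was the low goat and cow 1 the high cow, and the species did not overlap, the lowest goat being at 3.66 times the highest cow. The goats averaged 3318 ± 825 TPM (SD, n = 4) and the cows 317.6 ± 166 TPM (SD, n = 5), a ratio of means of 10.4. Among the entries of its library miR-378 ranked 14 to 19 in goats and 44 to 62 in cows. On log2(TPM + 1) the goat mean was 3.48 above the cow mean, with a standard error of 0.34 and a 95% interval of 2.76 to 4.21 (adjusted p = 3.21e-07, limma). Differences between the species were common in this table, since 37.3% of the tested entries passed as higher in goats, and in 30.9% every goat was above every cow, beside 20.3% in which every goat was below every cow. The number higher in goats was 81 of 217 with all animals and fell when any 1 goat was left out. It was 44 of 187 without goat 17 and 46 of 186 without goat 79, where 57 and 52 entries were lower. It was 51 of 188 without goat 44 and 64 of 188 without goat 127, where 44 and 47 were lower. With 3 goats left, an entry found in goats alone cannot reach 4 libraries and is not tested. miR-378 had rank 27 of 217 by log2 fold change. In such pooled vesicles, fewer vesicles from a cell type cannot be told apart from less miRNA in each. Leukocyte markers were also higher in goats, with a summed level of 444 to 1230 TPM in goats against 17 to 52 TPM in cows, and their part in the result was not tested.

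**Figure D1:**
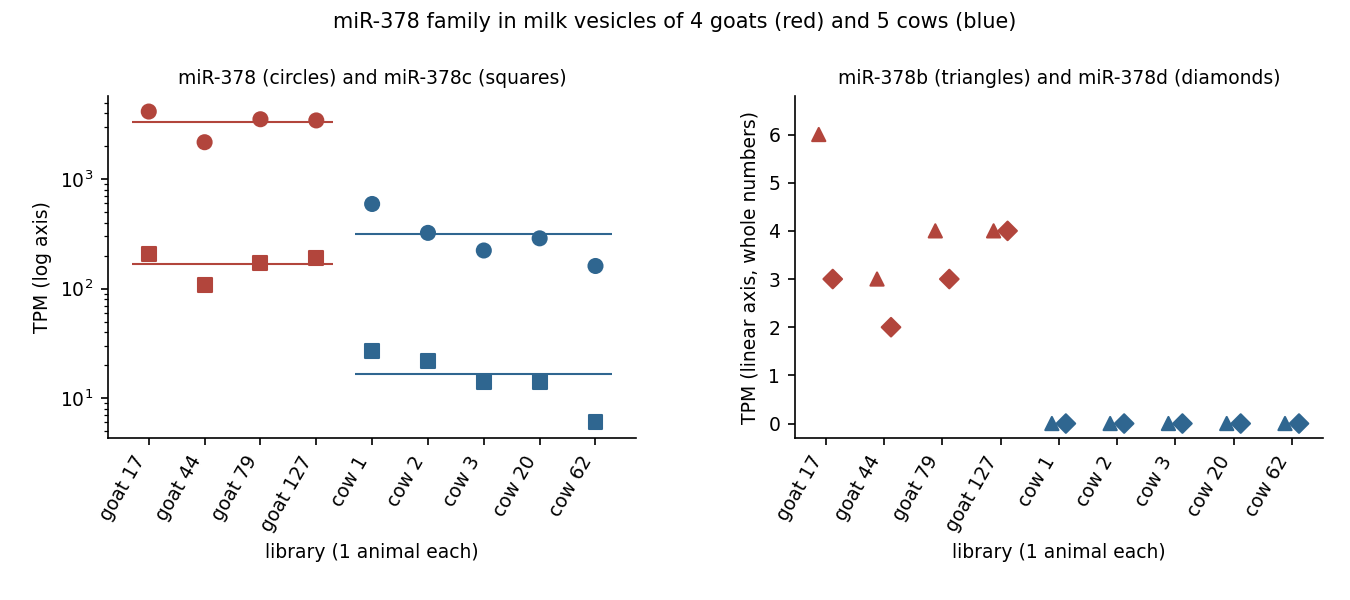
TPM of the 4 miR-378 family entries in each library, goats in red and cows in blue. On the left, circles are miR-378 and squares miR-378c on a log axis, with a line at the mean of each species; on the right, triangles are miR-378b and diamonds miR-378d on a linear axis. The 4 goats lie above all 5 cows for miR-378 (2173 to 4141 against 161 to 593 TPM), and the scarce entries are at 2 to 6 TPM in goats and 0 in every cow.

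miR-378c, which shares the seed of miR-378, followed the same order of species at a far lower level. It stood at 208, 107, 173 and 189 TPM in goats 17, 44, 79 and 127, and at 27, 22, 14, 14 and 6 TPM in cows 1, 2, 3, 20 and 62. Again goat 44 was lowest among goats, cow 1 highest and cow 62 lowest among cows, with no overlap of the species and a lowest goat at 3.96 times the highest cow. The goats averaged 169 ± 43.9 TPM (SD, n = 4) and the cows 16.6 ± 8.11 TPM (SD, n = 5), a ratio of means of 10.2. The log2 difference was 3.38, with a standard error of 0.38 and a 95% interval of 2.57 to 4.19 (adjusted p = 1.51e-06, limma). It stood next to miR-378 in the order of log2 fold changes, at rank 28 of 217.

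**Figure D2:**
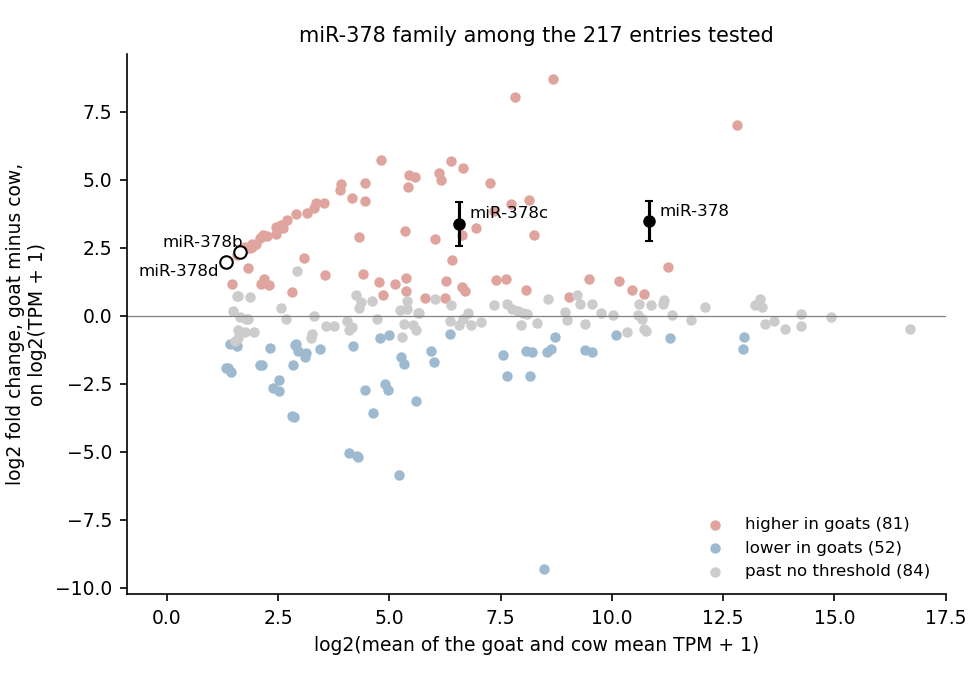
Log2 fold change (goat minus cow, on log2(TPM + 1)) of the 217 tested entries against the log2 of their mean level. Filled black points are miR-378 at 3.48 and miR-378c at 3.38 with their 95% intervals, open circles are miR-378b and miR-378d, whose direction the filter fixed, and 81 of the coloured entries passed as higher and 52 as lower in goats.

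As a percentage of miR-378 in the same library, miR-378c differed between the species by less than the spread between animals. The ratio was 5.02%, 4.92%, 4.91% and 5.50% in goats 17, 44, 79 and 127. In cows 1, 2, 3, 20 and 62 it was 4.55%, 6.81%, 6.28%, 4.86% and 3.73%. The goat values lay inside the range of the cows, with cow 2 and cow 3 above every goat and cows 1, 20 and 62 below every goat. A ratio within a library does not depend on how that library was scaled. It can depend on how tags that match both entries were assigned, which is not known here. The goats averaged 5.09 ± 0.28% (SD, n = 4) and the cows 5.25 ± 1.27% (SD, n = 5). The difference, goat minus cow, was -0.16 percentage points and gave p = 0.825 in an exact permutation test, two-sided, whose smallest possible p is 0.0159. The Benjamini-Hochberg value over the 2 such tests computed, the other on the family's share of the listed TPM, was also 0.825. The 95% interval of the difference, from repeating the test on shifted goat values, ran from -1.78 to 1.19 percentage points. Its sign rested on single cows, with a difference of 0.24 points without cow 2 and 0.10 without cow 3. Summed over animals, miR-378c amounted to 5.10% of miR-378 in goats and 5.23% in cows.

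The CV of the ratio (SD as a percentage of the mean) was 5.48% in goats, against 24.2% in cows. The miR-378c values of the cows are low whole numbers. In cow 62, where miR-378c was written as 6 TPM, rounding alone allows 3.41% to 4.05%. In cow 2 it allows 6.65% to 6.98%, so the gap between these cows is wider than rounding. The reads behind these values are unknown, and whether the species differ in the scatter was not tested.

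**Figure D3:**
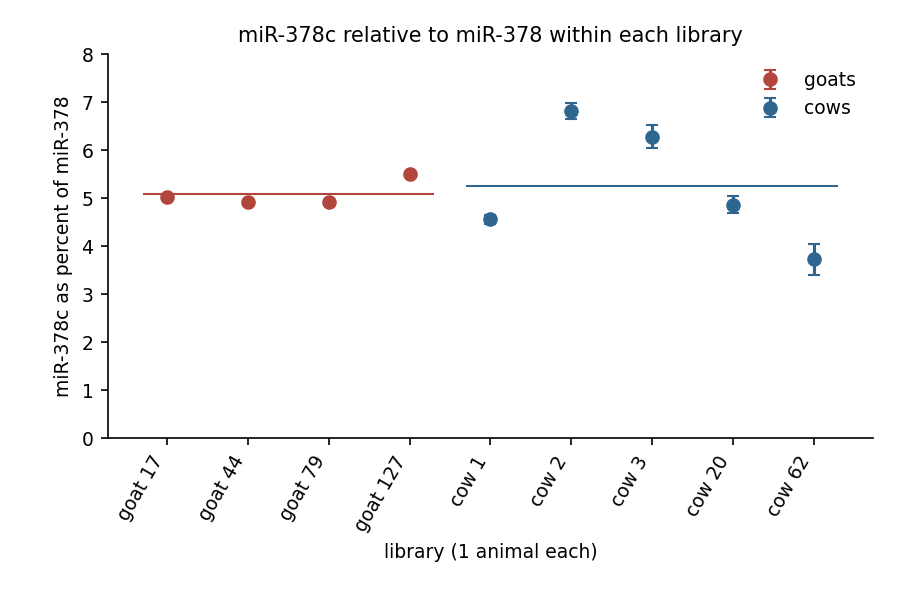
miR-378c as a percentage of miR-378 within each library, goats in red and cows in blue, with a line at the mean of each species. Bars show only what rounding to whole TPM allows; the 4 goats lie between 4.91% and 5.50% and the 5 cows between 3.73% and 6.81%, on both sides of the goats.

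miR-378b and miR-378d, the entries with seeds of their own, were scarce. miR-378b stood at 6, 3, 4 and 4 TPM in goats 17, 44, 79 and 127, and miR-378d at 3, 2, 3 and 4 TPM. Both were listed at 0 in every cow. The means in goats were 4.25 ± 1.26 TPM for miR-378b and 3.00 ± 0.82 TPM for miR-378d (SD, n = 4 each). miR-378b was above miR-378d in goats 17, 44 and 79 and level with it in goat 127, differences of 0 to 3 TPM. The filter fixed the direction of both entries, so no fold change is given for them. Relative to miR-378, miR-378b was at 0.14%, 0.14%, 0.11% and 0.12%, a mean of 0.13 ± 0.016% (SD, n = 4). miR-378d was at 0.072%, 0.092%, 0.085% and 0.12%, a mean of 0.092 ± 0.018% (SD, n = 4).

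At the ratios found in the 4 goats, the miR-378 level of the cows would go with 0.18 to 0.86 TPM of miR-378b and with 0.12 to 0.69 TPM of miR-378d. For both entries 4 of 5 cows would fall under 0.5 TPM even at the highest goat ratio, and in these 4 cows a lower ratio was not detectable in whole TPM. Cow 1, the highest for miR-378, would hold 0.67 to 0.86 TPM of miR-378b and 0.43 to 0.69 TPM of miR-378d. If decimals were rounded, the 0 listed for miR-378b in cow 1 allows a ratio of up to 0.084%, below the 0.099% that is the least rounding allows in any goat. For miR-378d the same limit of 0.084% lies among the goats. If decimals were cut off, all 5 cows would be listed at 0 at the goat ratios, and the sources used here do not say which was done.

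The family as a whole took 1.07%, 0.90%, 1.00% and 1.52% of the listed TPM in goats 17, 44, 79 and 127. It took 0.15%, 0.084%, 0.085%, 0.11% and 0.055% in cows 1, 2, 3, 20 and 62. The goats averaged 1.12 ± 0.27% (SD, n = 4) and the cows 0.097 ± 0.035% (SD, n = 5). On this scale goat 127, not goat 17, was the highest goat, since its listed total was the lowest of all libraries, and goat 44 and cow 62 remained the lowest of their species. Within the family, miR-378 made up 94.6% to 95.1% of the TPM in the 4 goats and 93.6% to 96.4% in the 5 cows. Other scalings shifted the log2 fold changes of miR-378 and miR-378c by about as much as the median of the tested entries. When TPM were scaled to the sum of listed entries, the log2 fold change was 3.58 for miR-378 and 3.48 for miR-378c. With median-of-ratios scaling it was 3.40 and 3.30. The median log2 fold change of the 217 entries was 0.24 as deposited, 0.33 with the listed sum and 0.16 with median of ratios.

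The spread between animals is given within each species, and its difference between them was not tested. In goats the CV of miR-378 was 24.9% and the highest goat stood at 1.91 times the lowest. In cows the CV was 52.3% and the highest cow stood at 3.68 times the lowest. Among entries with a mean of at least 10 TPM in the species, the median CV was 32.3% in goats (146 entries) and 25.5% in cows (139 entries). Of these, 32 in goats and 130 in cows varied less than miR-378. miR-378c had CVs of 25.9% in goats and 48.9% in cows. Without goat 44 the goat CV of miR-378 was 10.4%, and without cow 1 the cow CV was 28.8%. For miR-378c the goat CV was 9.22% without goat 44. Scaled to the listed sum, the CV of miR-378 was 24.1% in goats, where 51.4% of entries varied less, and 36.6% in cows, where 88.3% did. The place of miR-378 near the top of cow variability therefore held on that scale, and its place among the less variable goat entries did not.

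Likeness to miR-378 was taken as the SD, over the 9 libraries, of the log2(TPM + 1) difference from miR-378. It was computed for the 131 entries above 0 in all libraries with a mean of at least 10 TPM, whose median SD was 1.89. miR-378c was the closest by far, with an SD of 0.23, and it was also closest when each species was centred on its own mean. The first 20 bases of miR-378c and miR-378 are identical, and whether tags common to both account for this likeness was not tested. Outside the family the closest were miR-744 (SD 0.55), miR-143 (0.58), miR-885 (0.58), miR-1271 (0.61) and miR-155 (0.71). Their ratios of goat to cow means lay between 7.24 and 19.3, which follows from a choice made on likeness to miR-378 over both species. miR-744, the nearest, stood at 105, 113, 135 and 99 TPM in goats 17, 44, 79 and 127 and at 19, 22, 12, 14 and 11 TPM in cows 1, 2, 3, 20 and 62. Once each species was centred, miR-744 fell to rank 14 and the other 4 to ranks 45 to 88 of 131, so their likeness lay in the difference between the species and less in that between animals of a species. The measure is a description and all points share the same 9 libraries.

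**Figure D4:**
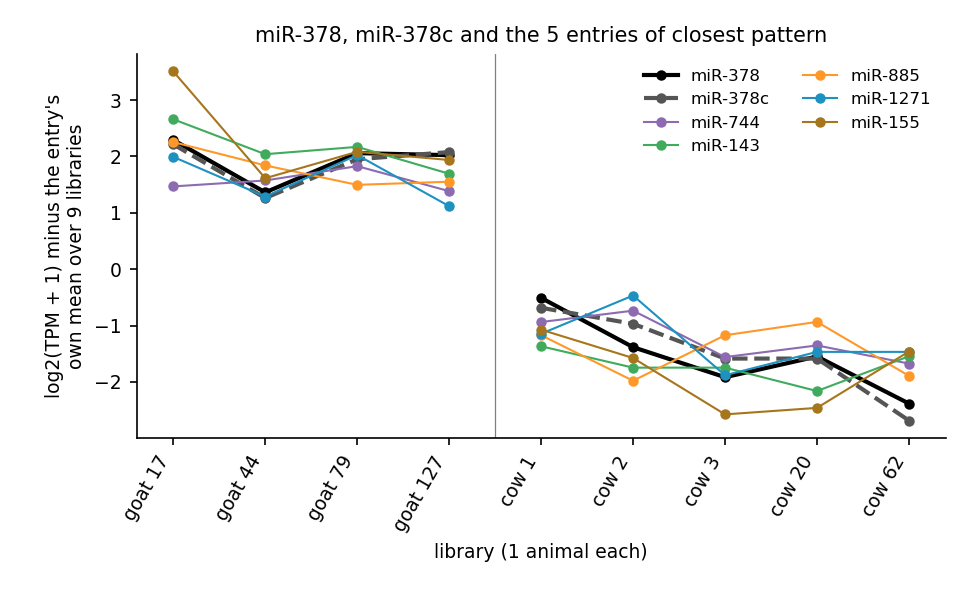
Log2(TPM + 1) of miR-378, miR-378c and the 5 entries of closest pattern in each library, each minus its own mean over the 9 libraries. Lines join values of 1 entry within a species and carry no order of animals; miR-378c (dashed) runs beside miR-378 with an SD of the difference of 0.23, against 0.55 to 0.71 for the others.

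Markers of other cell types were read against the 37.3% of all tested entries that passed as higher in goats and the 24.0% that passed as lower. In the leukocyte list all 6 tested entries passed as higher in goats. Of these, miR-223, miR-142-5p, miR-146a and miR-150 reached at most 3, 6, 6 and 2 TPM in any cow. They met the filter through the goats, which favours a call as higher, so the count of 6 is a description. miR-155, a miRNA of activated leukocytes, averaged 401.5 ± 277 TPM in the goats, against 20.8 ± 9.28 TPM in the cows, and miR-223, a myeloid miRNA, was at 0 in cows 2 and 3. In the stromal and endothelial list 1 of 2 tested entries, miR-143, was higher in goats. The other, miR-126-3p, averaged 1.0 TPM in the goats, against 2.8 TPM in the cows, with a log2 difference of -0.92 that did not pass (adjusted p = 0.144, limma). In that list the summed level was 217 to 425 TPM in goats, against 19 to 30 TPM in cows. Most of it was miR-143, at 216 to 423 TPM in goats and 14 to 25 TPM in cows. miR-145 was at 1 to 2 TPM in goats and 0 in every cow, and it was not tested. Of the muscle list, where miR-378 is also abundant, miR-499 was higher in goats at 132 ± 49.5 TPM against 62.6 ± 19.8 TPM in cows (adjusted p = 0.0077, limma). The species overlapped for miR-499, at 87 to 199 TPM in goats and 49 to 97 TPM in cows. The rest of the muscle list was near 0 or not listed, with miR-1 at no more than 2 TPM in any goat and 1 TPM in any cow, and with 5 of 7 names not among the entries. The erythroid list summed to 1 to 37 TPM in goats, against 0 to 10 TPM in cows, and miR-122, the liver marker, to 0 to 12 TPM in goats and 0 to 3 TPM in cows. Among 6 tested epithelial entries 4 did not pass, with miR-141 the lower one in goats and miR-205 the higher one. miR-205 was at 0 to 1 TPM in every cow and passed the filter through the goats alone, which fixed its direction. The part of these cell types in the miR-378 difference was not tested.

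Other miRNAs linked to metabolism went both ways. Of 17 tested entries linked to lipid and energy metabolism, 3 passed as higher in goats, 5 as lower and 9 did not pass. Their median log2 fold change was -0.39, beside 0.24 over all 217 entries, of which 37.3% were higher and 24.0% lower. The most abundant of them, miR-148a, miR-26a and miR-30a-5p, did not pass. Their log2 differences, goat minus cow, were -0.50, 0.06 and -0.39, at adjusted p = 0.139, 0.837 and 0.209 in limma. The 3 higher entries were miR-143, miR-103 and miR-370. miR-143 had a log2 difference of 3.85, which exceeds the 3.48 of miR-378. miR-370 was at 0 in every cow, so the filter fixed its direction. The 5 lower entries were miR-27b, miR-125b, miR-29b, miR-365-3p and miR-34a, at log2 differences of -0.84, -1.32, -1.71, -1.82 and -1.81. miR-34a was at 0 to 1 TPM in goats and met the filter through the cows alone, which fixed its direction. Among miRNAs encoded in introns of metabolic or contractile genes, 2 of 4 tested were higher in goats and 2 did not pass. The other 3 of the 7 names on that list were not among the entries. miR-103, which lies in a pantothenate kinase gene and acts on insulin signalling in mice, averaged 1812 ± 330 TPM in the goats, against 966 ± 282 TPM in the cows, and the goats were higher by 0.94 on the log2 scale, with a standard error of 0.26 (adjusted p = 0.00545, limma). Its close relative miR-107 averaged 50.2 ± 15.3 TPM in the goats, against 48.0 ± 19.0 TPM in the cows, and did not pass (adjusted p = 0.808, limma). The other entry of that list that passed, miR-499, was higher in goats by 1.04 on the log2 scale, with the overlap of the species given above.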

How the data were processed

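Milk-derived EV small RNAs of 4 goats and 5 cows were sequenced by the authors on an Illumina NextSeq from NEBNext libraries. The authors trimmed adapters, mapped reads with miRBase 20 and the bovine reference for both species, and deposited a score, TPM as whole numbers. Not given in the sources used here are the mapping program and the genome build. Depth per library is unknown, so precision rests on the spread between animals. The 4 entries and all lists were chosen with earlier results of these data known. Fits used limma 3.58.1 in R 4.3.3 with a trend, on log2(TPM + 1) over the 217 entries that exceeded 1 TPM in 4 or more libraries, Benjamini-Hochberg adjusted with a threshold of 0.05. The model was run on simulated log2 values with normal noise and known changes, as many up as down. Those values had no floor at 0 and no tie of variance to mean. The run therefore checks the code and not the fit of the model to these data. The ratio was compared with an exact permutation test in scipy 1.17.1 (Python 3.11). The same test of the share summed over the family was computed and enters the adjustment, but its p is not given, since the members were chosen with results known. Named miRNAs were the 4 entries, the 5 of closest pattern and up to 3 of highest mean per list. miR-103 and miR-499 stand under the intronic list. Named after their values were seen were miR-370, miR-205, miR-141, miR-429, miR-146a and miR-150. The same holds for miR-27b, miR-125b, miR-29b, miR-365-3p and miR-34a. Alternatives were pseudocounts of 0.1 and 10, other filters and scalings, no trend, and leaving out each animal.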

Additional observations from a re-analysis of the deposited data

Results flagged for a closer look

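Of 55 groups of values checked, 8 held an animal far from the others of its species. The groups covered the family, its ratios and other named miRNAs in each species. Chance gives about 1 in 20. That rate does not hold for whole numbers near 0, where a single value of 1 among 0s stands apart. None of the 8 was a member of the miR-378 family. Goat 17 stood apart for miR-155 at 813 TPM, the other goats lying at 218 to 302. Goat 79 stood apart for miR-451 at 26 TPM, with 0 to 3 in the other goats, and for miR-122 at 12 TPM, with 0 to 2 in the others. Cow 1, the cow of highest miR-378, stood apart for miR-200b at 13407 TPM against 7222 to 8853 in the other cows, for miR-486 at 8 TPM against 0 to 1, and for miR-1 at 1 TPM against 0. Cow 2 stood apart for miR-107 at 81 TPM, the other cows lying at 33 to 44. Cow 62, the cow of lowest miR-378, stood apart for miR-499 at 97 TPM, with 49 to 61 in the others.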

How the results depend on the processing

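miR-378 and miR-378c kept their direction and their call under all 16 alternatives run, at log2 fold changes of 3.27 to 3.74 and 2.77 to 3.58, with adjusted p up to 9.05e-06 and 2.65e-05 (limma). Leaving out 1 animal gave 3.27 (without cow 62) to 3.74 (without cow 1) for miR-378 and 3.08 to 3.58 for miR-378c. With entries above 0 in all 9 libraries, 72 entries differed between the species, against 133 in the analysis as reported. Fewer entries were then tested (155 against 217) and a smaller share passed (46.5% against 61.3%), since that filter also removes entries at 0 in 1 species. Scaled to the sum of listed entries, 167 of 240 tested entries differed (69.6%), 104 of them higher in goats. With median-of-ratios scaling 163 of 239 differed (68.2%), 92 of them higher. Without a filter 158 of 296 differed (53.4%). Without 1 animal the number of entries that differed was 95 to 130. miR-378b and miR-378d passed in the 11 alternatives that tested them, the one without a filter included, but in the others they entered through the goats, so this is no sign of stability. They were not tested when only entries above 0 in all libraries were kept or when a goat was left out. Without 1 animal the difference in the miR-378c to miR-378 ratio ran from -0.54 to 0.24 percentage points, changing sign without cow 2 or cow 3, and its p in the exact permutation test was 0.429 to 0.929. The family's share then differed by 0.89 to 1.10 percentage points, and by 1.43 when miR-148a was left out of the listed sum. Without 1 animal the CV of miR-378 was 10.4% to 30.7% over goats, against 28.8% to 60.6% over cows, and that of miR-378c was 9.22% to 31.9% over goats, against 33.2% to 57.0% over cows. No paired analysis was possible because goats and cows share no animal number. Whole TPM limit the entries of a few TPM.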
